A study of Homo sapiens with 6 samples.

Results

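The BCL2 family of apoptosis regulators was followed through BT474 cells that overexpressed either of 2 forms of the long non-coding RNA NR2F1-AS1. The 10 genes BCL2, BCL2L1, MCL1, BCL2A1, BAX, BAK1, BCL2L11, BIK, PMAIP1 and BBC3 were taken by symbol from the 43317 gene names of the arrays, which gave 15 of the 58201 probes printed. BT474 is an HER2-amplified luminal breast cancer cell line. The Control cells carried empty pcDNA3.1, the BT474-Var1 cells carried pcDNA3.1 with variant 1 of NR2F1-AS1 and the BT474-Var4 cells carried it with variant 4, and each group had 2 arrays, A and B. Per the study's methods, the transfected cells were selected with antibiotic, the variant 4 plasmid also encoded eGFP and the variant 1 plasmid was a hygromycin vector, so the insert and the plasmid backbone cannot be told apart between them. The study also reports that few cells with either variant remained after transfection and that colonies later grew from these. Outgrowth of survivors and response to a variant therefore cannot be told apart. By qPCR, the study further reports a rise of endogenous variant 4 in BT474-Var1 cells, and no such rise of variant 1 in BT474-Var4 cells. A difference between the 2 populations is therefore not one of variant 4 alone against variant 1 alone. Which empty plasmid the Control cells carried is not given in the sources used here, and nothing states that A and B were separate transfections, so p-values measure only the spread between these arrays. A single slide held all 6 arrays, with those of BT474-Var1 cells alone in its other column, so column and variant 1 cannot be told apart.

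The epithelial markers of the label were present, and part of the markers of other cell types was too. All 8 luminal epithelial markers, ERBB2, ESR1, EPCAM, FOXA1 and GATA3 among them, were well above background on all 6 arrays, whereas the fibroblast genes COL1A2, COL3A1, LUM and PDGFRA, the endothelial genes KDR and TEK, the basal genes KRT5 and ACTA2 and the B cell gene MS4A1 were above it on none. In the same lists COL1A1, PDGFRB, VWF and CDH5 were above it on all 6 arrays and KRT14 on 4. COL1A1 had a mean level of 1.14 in Control cells, 1.48 with variant 1 and 2.18 with variant 4, and the summed signal of the fibroblast list was 3.15 to 3.22, 3.79 to 3.95 and 5.58 to 5.77. The part of these transcripts in the results on the family was not tested. The summed signal of the epithelial list was taken in multiples of the array's 75th percentile, over probes with no common scale. It was 2057 to 2094 in Control, 2624 to 2663 in BT474-Var1 and 2012 to 2031 in BT474-Var4 cells. With variant 1 the mean levels of KRT19, the brightest of the list, KRT18, ERBB2, KRT8 and GATA3 were above those in Control cells. Those of EPCAM (5.85 against 6.51), FOXA1 (5.30 against 5.79) and ESR1 (2.02 against 2.15) were below them. With variant 4 FOXA1 (5.39) and ESR1 (1.68) were also lower than in Control cells, and only KRT18 and KRT8 were higher. The sum thus does not stand for each marker. Because whole cultures were measured, fewer cells with a transcript and less of it per cell cannot be told apart.

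Proteins of the BCL2 family decide whether the outer mitochondrial membrane is breached. The guardians BCL2, BCL-XL (BCL2L1), MCL1 and BFL1 (BCL2A1) hold the pore-formers BAX and BAK (BAK1) in check, and the BH3-only proteins BIM (BCL2L11), PUMA (BBC3), NOXA (PMAIP1) and BIK bind the guardians or activate the pore-formers. Once pores form, cytochrome c leaves the mitochondria and caspases are activated. In breast epithelium BCL2 is known as an estrogen-responsive gene.

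Levels are given as log2 of the spot signal less the array's 75th percentile, so that 0 marks a probe at that percentile, and levels of different probes are not on a common scale. Of the 15 probes, 14 were well above background on all 6 arrays and were tested with limma among 31858 probes. A probe was called at a Benjamini-Hochberg adjusted p under 0.05. In BT474-Var1 against Control cells, 9 of the 14 probes were called, 4 higher and 5 lower, where 34.4% of all tested probes were called. In BT474-Var4 against Control cells, 3 of 14 were called, 2 higher and 1 lower, against 24.2% of all probes. Between the 2 populations, 12 of 14 were called, 6 higher and 6 lower in BT474-Var4 cells, against 41.2% of all probes. Unlike the 14, the probes behind these shares include some that were well above background in only 1 group. No share among probes well above background on all 6 arrays is given. At a change of 2-fold or more as well, 2 probes were called in BT474-Var1 cells (background 3.94%), 0 in BT474-Var4 cells (background 3.17%) and 1 between the populations (background 6.86%). The 0 in BT474-Var4 cells stands beside 8 probes with an unadjusted p under 0.05 in limma, and it was also 0 under every alternative setting run.

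The size of the changes was moderate. The median absolute log2 difference over the 14 probes was 0.34 in BT474-Var1 cells, where all tested probes gave 0.26, and 0.21 in BT474-Var4 cells, where all gave 0.22. Between the populations it was 0.39, where all gave 0.30.

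**Figure D1:**
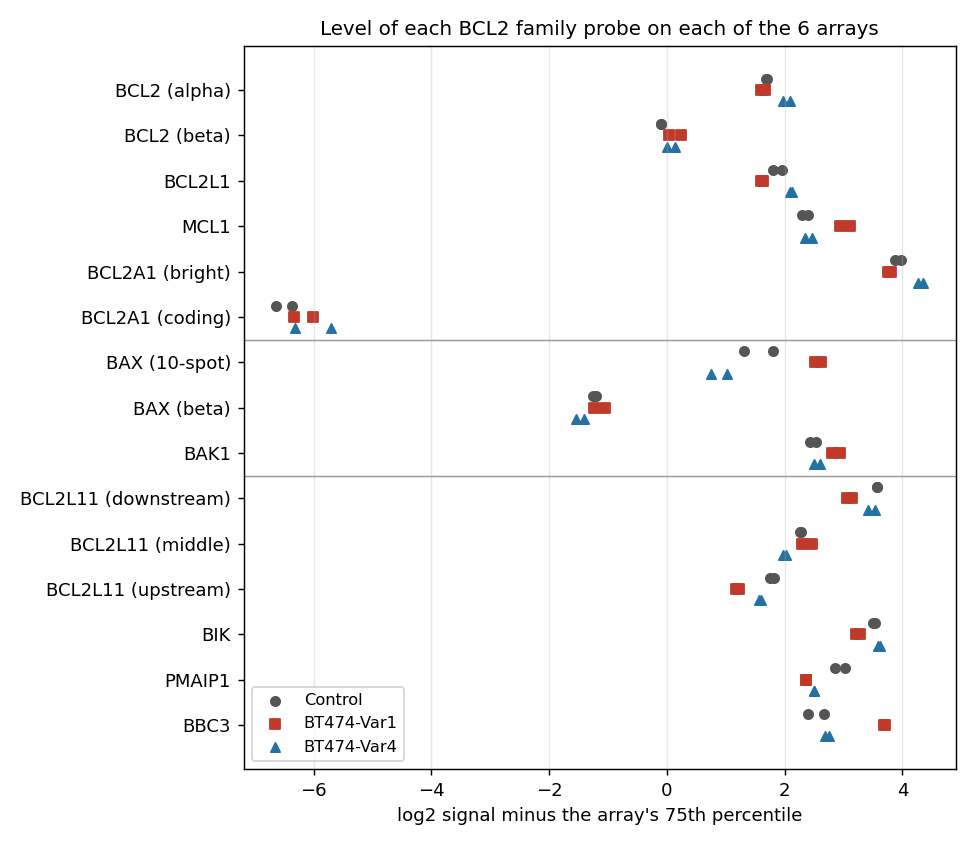
Level of each of the 15 probes on each of the 6 arrays (horizontal axis, log2 signal minus the array's 75th percentile), by guardians, pore-formers and BH3-only genes from top to bottom, with 1 point per array. For the 10-spot BAX probe, BAK1, MCL1, BBC3 and, by a small margin, the middle BCL2L11 probe both BT474-Var1 points lie to the right of the other 4. How many of all tested probes do so was not counted. The coding probe of BCL2A1 lies at or below -5.70 on every array.

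**Figure D2:**
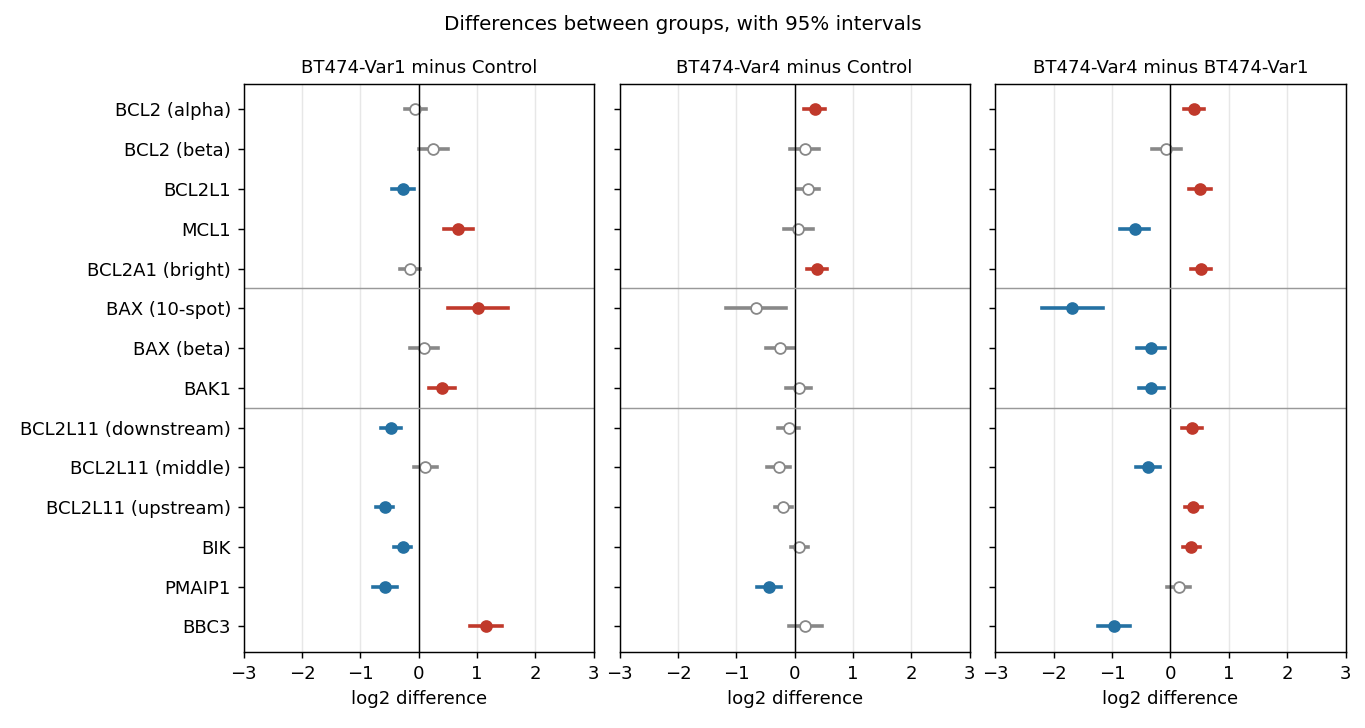
Log2 differences between groups for the 14 tested probes (points) with 95% intervals from the limma fit (bars), where filled points passed an adjusted p under 0.05, red higher and blue lower. BBC3 and the 10-spot BAX probe have the largest rises in BT474-Var1 cells, and the 3 BCL2L11 probes do not point one way.

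BAX, the cytosolic pore-former that inserts into the outer membrane, differed most between the populations. Its probe A_23_P208706 (hg19 chr19:49464904-49464963, plus strand, assigned by the file to variant sigma and other forms) was printed as 10 spots per array. It stood at 1.30 and 1.80 in Control, 2.61 and 2.52 in BT474-Var1 and 0.76 and 1.01 in BT474-Var4 cells. The groups did not overlap: both BT474-Var1 arrays lay above both Control arrays, and both BT474-Var4 arrays below them. The level rose 2.02-fold in BT474-Var1 cells (log2 difference 1.02, SE 0.19, adjusted p = 0.021). For BT474-Var4 the difference was -0.66 (95% interval -1.18 to -0.15, adjusted p = 0.072), which did not pass. Between the populations BAX was 3.20-fold lower in BT474-Var4 cells (log2 difference -1.68, SE 0.19, adjusted p = 0.0053).

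The 10 spots separated the error of the spots from that of the arrays. Within an array their SD was 0.05 to 0.17, whereas the Control arrays differed by more than that, with an SD of 0.35 between them. The largest spot SD, 0.17, was on Control array B, whose spots reached from 1.34 to 1.97. Only its lowest spot overlapped those of Control array A (1.19 to 1.39), and its next lowest was at 1.75. All spots of both BT474-Var1 arrays lay at 2.44 or higher, and all spots of both BT474-Var4 arrays at 1.13 or lower. The BT474-Var1 call was lost without Control array A (adjusted p = 0.054), BT474-Var1 array A (0.087) or BT474-Var1 array B (0.075), while the difference between the populations passed without any 1 of the 6 arrays (0.0097 to 0.032).

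**Figure D3:**
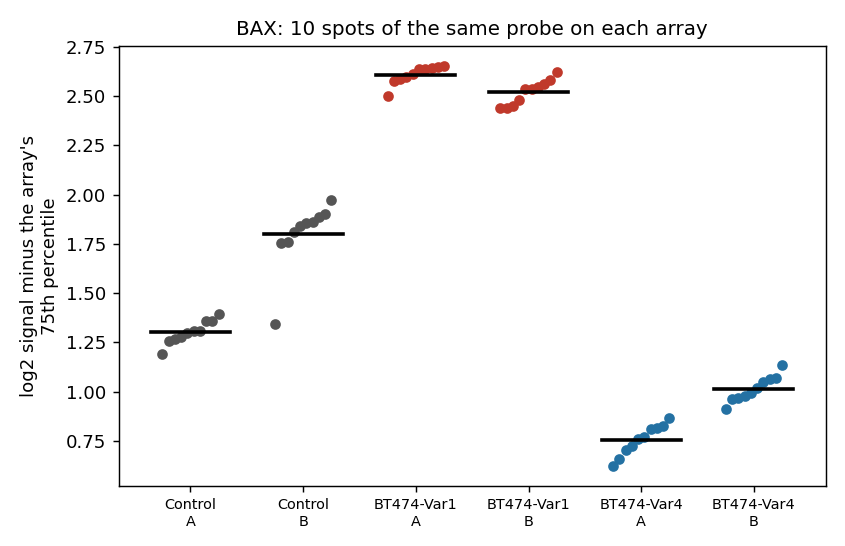
The 10 spots of BAX probe A_23_P208706 on each array (vertical axis, log2 signal minus the array's 75th percentile), sorted by level within the array, with the mean as a bar. Spots of the BT474-Var1 arrays lie between 2.44 and 2.65, those of the BT474-Var4 arrays between 0.62 and 1.13.

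The other BAX probe did not show the same rise. A_33_P3341144 (chr19:49464454-49464513), which the file assigns to variant beta, a form with a different carboxyl end, read -1.26 and -1.20 in Control, -1.24 and -1.05 in BT474-Var1 and -1.42 and -1.54 in BT474-Var4 cells. The BT474-Var1 arrays overlapped the Control arrays, and the difference was 0.08 (95% interval -0.15 to 0.32, adjusted p = 0.51). Between the populations the probe was lower in BT474-Var4 cells by a log2 difference of -0.33 (adjusted p = 0.044), a call lost in 5 of the 6 fits that left out an array. Both probes thus stood lowest in BT474-Var4 cells, and the BT474-Var1 difference from Control was 1.02 at one and 0.08 at the other.

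BAK1, the pore-former that resides in the membrane, rose in BT474-Var1 cells. Its probe A_23_P145357 (chr6:33540585-33540644) read 2.43 and 2.54 in Control, 2.81 and 2.94 in BT474-Var1 and 2.49 and 2.61 in BT474-Var4 cells. Both BT474-Var1 arrays lay above the other 4. The rise was 1.31-fold (log2 difference 0.39, SE 0.08, adjusted p = 0.026), and in BT474-Var4 cells the difference was 0.07 (95% interval -0.15 to 0.29). The call ended when a single array of either Control or BT474-Var1 cells was left out (adjusted p = 0.057 to 0.12).

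PUMA, encoded by BBC3, is a BH3-only protein that binds all guardians, and it had the largest rise of the family in BT474-Var1 cells. Its probe A_23_P382775 (chr19:47724174-47724233, minus strand) stood at 2.40 and 2.67 in Control, 3.69 and 3.70 in BT474-Var1 and 2.76 and 2.69 in BT474-Var4 cells. Both BT474-Var1 arrays lay above every other array. The rise was 2.23-fold (log2 difference 1.15, SE 0.10, adjusted p = 0.0049). It passed without any 1 of the 6 arrays (adjusted p = 0.017 to 0.033) and under every other setting run. With variant 4 the difference was 0.19 (95% interval -0.09 to 0.46, adjusted p = 0.26), and BBC3 was lower there than in BT474-Var1 cells by a log2 difference of -0.97 (adjusted p = 0.0045).

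The upstream sequences of BAX and BBC3 are shown because these 2 genes had the 2-fold rises in BT474-Var1 cells. Both are the 250 bases before the gene's start in RefSeq's table for GRCh38.p14, written 5′ to 3′ on the gene's strand, with the E-box CACGTG, the palindrome read by basic helix-loop-helix factors, in capitals.
BAX, chr19:48954625-48954874, plus strand: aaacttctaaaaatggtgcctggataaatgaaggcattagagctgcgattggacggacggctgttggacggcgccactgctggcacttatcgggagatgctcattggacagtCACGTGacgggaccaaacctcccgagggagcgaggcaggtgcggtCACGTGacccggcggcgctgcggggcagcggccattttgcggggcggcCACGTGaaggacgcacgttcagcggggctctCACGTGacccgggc
BBC3, chr19:47232668-47232917, minus strand: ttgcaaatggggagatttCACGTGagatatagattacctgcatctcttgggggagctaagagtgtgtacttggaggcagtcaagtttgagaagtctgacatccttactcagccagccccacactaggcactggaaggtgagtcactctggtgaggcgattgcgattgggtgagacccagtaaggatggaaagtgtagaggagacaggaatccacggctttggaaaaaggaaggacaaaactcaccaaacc
The BAX window holds 4 such sites, which begin 138, 93, 45 and 14 bases before the start, and the BBC3 window holds 1, which begins 232 bases before it. Both strands were searched, and the shorter letters ACGTG, which lie inside every CACGTG, were searched as well. Of the 35116 windows in the table, each cut to the same 250 bases before the start, 6.35% hold CACGTG and 18.5% hold ACGTG. Windows were found for 8 of the 10 genes, and among these BAX and BBC3 alone hold either motif; MCL1 and BIK had no entry. A match of letters is a description of the sequence and no record of a factor bound there.

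NOXA, the BH3-only protein of PMAIP1 that binds MCL1 and BFL1, moved against BBC3. Probe A_33_P3619171 (chr18:57570691-57570750) read 2.85 and 3.03 in Control, 2.36 and 2.36 in BT474-Var1 and 2.50 and 2.49 in BT474-Var4 cells. All 4 arrays of the variant populations lay below both Control arrays. The level fell 1.49-fold in BT474-Var1 cells (log2 difference -0.58, SE 0.08, adjusted p = 0.0090) and 1.36-fold with variant 4 (-0.44, SE 0.08, adjusted p = 0.023), and PMAIP1 was the one gene called against Control in both. The populations differed by 0.14 (95% interval -0.07 to 0.34, adjusted p = 0.21). The BT474-Var1 fall passed without any 1 array (adjusted p = 0.025 to 0.046). The BT474-Var4 fall passed without Control array A (0.049) and was lost without any 1 of the other 5 arrays (0.052 to 0.092).

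BCL2L11 encodes BIM, which activates BAX and BAK1 directly and is made in several splice forms. Its 3 probes lie along the gene on chromosome 2. The upstream probe A_33_P3398526 (chr2:111878705-111878764) read 1.81 and 1.75 in Control, 1.17 and 1.22 in BT474-Var1 and 1.57 and 1.61 in BT474-Var4 cells. The downstream probe A_24_P122921 (chr2:111925892-111925951), assigned to variant 1 and other forms, read 3.57 and 3.57, 3.14 and 3.06, and 3.53 and 3.41 in the same order of groups. At both, the BT474-Var1 arrays were the lowest of the 6. The falls were 1.50-fold at the upstream probe (log2 difference -0.59, SE 0.06, adjusted p = 0.0052) and 1.39-fold at the downstream one (-0.47, SE 0.07, adjusted p = 0.0099). The upstream call passed without any 1 array (adjusted p = 0.017 to 0.040), and the downstream call was lost without Control array A (0.058) or B (0.056).

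The middle probe of BCL2L11 went another way, although the file names the same transcript for it (base 650) as for the upstream probe (base 214). A_33_P3251932 (chr2:111886352-111886411), which the file assigns to variant 9 alone of the RefSeq forms, read 2.28 and 2.26 in Control, 2.30 and 2.47 in BT474-Var1 and 2.02 and 1.98 in BT474-Var4 cells. The BT474-Var4 arrays were the lowest here, although their difference from Control, -0.27, did not pass (adjusted p = 0.064). The BT474-Var1 difference was 0.11 (95% interval -0.09 to 0.31). Against BT474-Var1 cells, BT474-Var4 cells were lower at the middle probe (-0.39, adjusted p = 0.018) and higher at the upstream and downstream probes (0.39 and 0.37, adjusted p = 0.0084 and 0.015). Without BT474-Var1 array B or BT474-Var4 array A or B, the middle probe lost its call (adjusted p = 0.051 to 0.079), and without BT474-Var4 array A (0.055) or BT474-Var1 array B (0.065) the downstream probe did.

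BIK, a BH3-only protein of the endoplasmic reticulum, was at 3.49 and 3.54 in Control, 3.21 and 3.27 in BT474-Var1 and 3.58 and 3.62 in BT474-Var4 cells (A_23_P404667, chr22:43525495-43525554). The groups did not overlap, although they were close. The fall in BT474-Var1 cells was 1.21-fold (log2 difference -0.28, SE 0.06, adjusted p = 0.023). Quantile normalization ended the call, as did leaving out a single array of Control or BT474-Var1 cells (adjusted p = 0.063 to 0.11). BIK was higher with variant 4 than with variant 1 by 0.36 (adjusted p = 0.010), a call lost without BT474-Var4 array B, at an adjusted p of 0.0501.

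Among the guardians, MCL1 rose in BT474-Var1 cells. MCL1 is a short-lived protein that restrains BAK1 and BIM. Probe A_24_P336759 (chr1:150547622-150547681) read 2.30 and 2.39 in Control, 2.93 and 3.12 in BT474-Var1 and 2.34 and 2.47 in BT474-Var4 cells. Both BT474-Var1 arrays lay above the other 4, and the rise was 1.60-fold (log2 difference 0.68, SE 0.09, adjusted p = 0.0096). It was lost without Control array A (adjusted p = 0.058). With variant 4 the difference was 0.07 (95% interval -0.18 to 0.31), and against BT474-Var1 cells it was -0.62 (adjusted p = 0.0098).

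BCL2L1 went the other way. Its probe A_23_P210886 (chr20:30253324-30253383) is assigned to the transcripts of both the long form BCL-XL and the short form BCL-XS. It read 1.96 and 1.80 in Control, 1.63 and 1.59 in BT474-Var1 and 2.10 and 2.13 in BT474-Var4 cells, with no overlap between the groups. The fall in BT474-Var1 cells was 1.21-fold (log2 difference -0.27, SE 0.07, adjusted p = 0.045), and it was lost in each of the 6 fits that left out an array (0.060 to 0.15). The BT474-Var4 difference from Control was 0.23 (95% interval 0.04 to 0.42, adjusted p = 0.081). Between the populations BCL2L1 was 1.41-fold higher in BT474-Var4 cells (log2 difference 0.50, SE 0.07, adjusted p = 0.0084), which passed without any 1 array (0.016 to 0.044).

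BCL2, the founding guardian, rose in BT474-Var4 cells at 1 of its 2 probes. The probe of the alpha form, A_23_P352266 (chr18:60790723-60790782, minus strand), read 1.69 and 1.69 in Control, 1.59 and 1.67 in BT474-Var1 and 2.10 and 1.97 in BT474-Var4 cells. Both BT474-Var4 arrays lay above the other 4. The rise was 1.27-fold (log2 difference 0.34, SE 0.07, adjusted p = 0.030), and it was lost in each of the 6 fits that left out an array (0.055 to 0.12). Against BT474-Var1 cells the difference was 0.40 (adjusted p = 0.013), lost without BT474-Var1 array A (0.058).

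The probe that the file assigns to the beta form of BCL2, A_33_P3355185 (chr18:60985401-60985460), lies in coding sequence of the BH1 region. That region is also part of the alpha form, so the probe, labeled beta in the figures, does not read the beta form alone. Its sequence is printed because it is the one BCL2 probe on which no comparison passed.
BCL2, A_33_P3355185: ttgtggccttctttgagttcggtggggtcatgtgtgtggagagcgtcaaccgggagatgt
It read -0.11 and -0.10 in Control, 0.04 and 0.24 in BT474-Var1 and 0.14 and 0.00 in BT474-Var4 cells. All 4 variant arrays lay above Control, yet neither difference passed (0.25, adjusted p = 0.11, and 0.18, adjusted p = 0.23). The populations differed by -0.07 (95% interval -0.32 to 0.18).

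The probes named for BCL2A1, a guardian best known from blood cells and as an NF-κB target, disagreed. The probe in its coding sequence, A_23_P152002 (chr15:80263136-80263195, minus strand), was not well above background on any array, with values from -6.64 to -5.70, and was not tested. Its sequence is shown because it is the BCL2A1 probe that reads coding bases.
BCL2A1, A_23_P152002: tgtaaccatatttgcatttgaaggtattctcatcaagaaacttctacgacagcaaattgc
The other probe, A_23_P321703, was bright at 3.88 and 3.98 in Control, 3.76 and 3.81 in BT474-Var1 and 4.35 and 4.27 in BT474-Var4 cells. The file places 33 of its bases at chr15:80253220-80253252 and lists for it, beside BCL2A1, transcripts that RefSeq's table used here does not pair with BCL2A1. Its value can therefore not be assigned to BCL2A1 with certainty. It rose 1.30-fold in BT474-Var4 cells (log2 difference 0.38, SE 0.06, adjusted p = 0.022), a call that ended when a single array of these groups was left out (0.066 to 0.10). It was higher there than in BT474-Var1 cells by 0.53 (adjusted p = 0.0061), which passed without any 1 array.

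Leukocyte markers are given beside BCL2A1. Of 7 measured, CD79A, PTPRC, CD3D and CD14 were well above background on all 6 arrays and MS4A1 on none. Their summed signal was 22.0 to 22.7 in Control, 16.3 on both BT474-Var1 arrays and 21.8 to 22.5 in BT474-Var4 cells, over probes with no common scale. CD79A, the brightest of the 7, had mean levels of 4.36, 3.87 and 4.36 in Control, BT474-Var1 and BT474-Var4 cells, while those of PTPRC were -0.38, -0.26 and -0.46. The part of these transcripts in the BCL2A1 result was not tested.

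Within BT474-Var1 cells the called members thus crossed their roles. Of the guardians MCL1 rose and BCL2L1 fell, of the pore-formers both BAK1 and the 10-spot BAX probe rose, and of the BH3-only genes BBC3 rose while BIK, PMAIP1 and 2 of the 3 BCL2L11 probes fell. In BT474-Var4 cells the called members were the alpha probe of BCL2 and the bright BCL2A1 probe, which rose, and PMAIP1, which fell. Without a filter on dim probes, only BBC3 and the upstream BCL2L11 probe remained called in BT474-Var1 cells, none in BT474-Var4 cells, and BAX, BBC3 and the bright BCL2A1 probe between the populations. Of the 24 calls in the 3 comparisons, 5 passed under all 16 alternative settings. These were the upstream BCL2L11 probe and BBC3 in BT474-Var1 against Control cells, and BAX at 10 spots, BBC3 and the bright BCL2A1 probe between the populations. The 16 settings overlap. In a given comparison, the fit of only its 2 groups equals each fit that leaves out an array of the remaining group. The share of the calls over all probes that passed every setting was not counted.

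The wider BCL2 family was read with 1 probe per gene, the brightest tested one, and 13 of 15 further members were tested. Against Control, 2 rose and 3 fell in BT474-Var1 cells, and 3 rose and 1 fell in BT474-Var4 cells. These 5 and 4 calls stand beside 34.4% and 24.2% of all tested probes. Those shares include dim probes and several probes of a gene, and no share among the brightest probes of genes is given. The same holds for the lists that follow. The median log2 difference was 0.03 and 0.05, where all tested probes gave -0.04 and -0.08. The largest change was that of BNIP3, a mitophagy receptor with a BH3-like region and a known hypoxia target. BNIP3 read 3.74 and 3.64 in Control, 5.40 and 5.42 in BT474-Var1 and 3.62 and 3.50 in BT474-Var4 cells. It rose by 1.72 on the log2 scale in BT474-Var1 cells (SE 0.07, adjusted p = 0.0024) and was lower with variant 4 than with variant 1, at a difference of -1.85 (adjusted p = 0.0012). Leaving out 1 array gave 4 to 5 calls of this list in BT474-Var1 cells and 0 to 3 with variant 4, where 0 came without Control array B and 1 without Control array A or either BT474-Var4 array.

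Downstream of the mitochondrion, all 18 genes were tested. In BT474-Var1 cells 3 rose and 9 fell, with a median of -0.23 where all probes gave -0.04. These 12 of 18 stand beside 34.4% of all tested probes. The 9 included cytochrome c (CYCS, -0.59, adjusted p = 0.0052) and caspase 6 (CASP6, -0.60, adjusted p = 0.0063). They also included BIRC5 (-0.45, adjusted p = 0.0064), the gene of an inhibitor of apoptosis protein. The 3 that rose were BIRC3, BIRC2 (0.36, adjusted p = 0.012) and caspase 9 (CASP9, 0.46, adjusted p = 0.0090). CASP9 also rose in BT474-Var4 cells (0.57, adjusted p = 0.0088). In place of these 12 calls there were 6 after quantile normalization, 4 without either Control array, 5 without BT474-Var1 array A and 8 without array B. In BT474-Var4 cells 3 rose and 3 fell, with a median of -0.08 as over all probes, beside 24.2% of all probes called, and these 6 calls became 1 without Control array A and 2 without Control array B or BT474-Var4 array B. BIRC3, the gene of an inhibitor of apoptosis protein induced by NF-κB, rose most in both. It read -0.91 and -0.78 in Control, 1.05 and 1.07 in BT474-Var1 and 0.82 and 0.79 in BT474-Var4 cells, which were log2 differences of 1.90 and 1.65 (SE 0.06, adjusted p = 0.0023 and 0.0024) and became 1.26 and 1.08 with normexp background correction.

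Of the death receptor list, 13 of 15 genes were tested, and 2 rose and 3 fell in BT474-Var1 cells, whereas 3 rose and 2 fell in BT474-Var4 cells. These 5 calls of 13 in each stand beside 34.4% and 24.2% of all probes. The medians were 0.14 and 0.06, where all probes gave -0.04 and -0.08. Without 1 array the 5 calls with variant 4 became 1 to 2, and the 5 with variant 1 became 2 without Control array A and 3 without either BT474-Var1 array. TNFRSF21, the gene of death receptor 6, was higher with variant 4 than with variant 1 by 1.02 (adjusted p = 0.0016). FAS, the receptor of FAS ligand, was well above background on 1 of 2 Control arrays, on no BT474-Var1 array and on both BT474-Var4 arrays. It read -5.79 and -4.03 in Control, -4.10 and -4.05 in BT474-Var1 and -2.01 and -2.36 in BT474-Var4 cells. It is 1 of the 3 genes of the list counted as higher with variant 4. Because the probe entered the test through its BT474-Var4 arrays alone, no fold is given for it, and the fitted log2 difference ran from 0.38 with normexp background correction to 3.61 without Control array B. Its limma call with variant 4 (adjusted p = 0.039) was lost without either BT474-Var1 or BT474-Var4 array (0.076 to 0.13), without a filter on dim probes (0.12), under the methods' analysis of variance (0.11), with only both groups compared (0.076) and with the replicate block (0.067).

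Of the transcription factors that act upstream of the family, 15 of 15 were tested. In BT474-Var1 cells 2 rose and 4 fell, and in BT474-Var4 cells 3 rose and 3 fell, with medians of 0.03 in both, where all probes gave -0.04 and -0.08. These 6 calls of 15 in each stand beside 34.4% and 24.2% of all probes. ATF3, a stress-induced factor, read 2.84 and 2.74 in Control, 4.13 and 4.07 in BT474-Var1 and 3.71 and 3.73 in BT474-Var4 cells. It rose by 1.31 with variant 1 (adjusted p = 0.0028) and by 0.93 with variant 4 (adjusted p = 0.0041). JUN, an AP-1 subunit, rose by 1.03 (adjusted p = 0.0046) and 0.77 (adjusted p = 0.0097). DDIT3, which encodes CHOP, a known inducer of BIM and PUMA, rose by 0.81 in BT474-Var4 cells (adjusted p = 0.0038), and its BT474-Var1 difference was 0.18 (adjusted p = 0.052). The 4 that fell in BT474-Var1 cells were MYC (-0.62), CEBPB (-0.51), NFKB1 (-0.50) and E2F1 (-0.32). The 3 that fell in BT474-Var4 cells were MYC (-0.58), E2F1 (-0.51) and NFKB1 (-0.21).

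The genes whose pattern over the 6 arrays was nearest to that of the members with a 2-fold call are given as a description. For the 10-spot BAX probe these were AMDHD2 (Pearson r 0.9993) and FAR1 (0.998), and for BBC3 GNL1 (0.9994) and PCMTD1 (0.999). With 3 groups of 2 arrays such values are common, and 1026 and 845 other tested probes had an r above 0.95 with BAX and BBC3.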

How the data were processed

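RNA of BT474 cells was labeled with Cy3 and hybridized to 1-color Agilent arrays, 2 per group. Spot quantification by the authors used Feature Extraction 11.5.1.1, and the deposited array files hold background-subtracted intensity values on a linear scale. The authors' deposited value table holds log2 values scaled to each array's 75th percentile, and it differed from the values computed here by a median of at most 0.0072 per array. Here the log2 intensity was set against the 75th percentile over non-control probes, outlier spots were dropped and repeated spots were averaged. A probe entered the test if at least 1 group had it well above background on its 2 arrays. Group means were fitted with limma 3.58.1 (R 4.3.3), with Benjamini-Hochberg adjustment over 31858 probes. Intervals are 95% from that fit, and the small number of arrays limits its precision. Shares of probes well above background were 47.6% to 57.5% per array, 63 to 128 outlier spots per array were left out and 0 spots were saturated.

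The members and gene lists were chosen with earlier results of these data known. Every member probe was named, and of the other lists at most 4 genes per list and comparison with an adjusted p under 0.05 and at least a 2-fold change. Beside these, CYCS, CASP6, CASP9, BIRC2, BIRC5, DDIT3, MYC, CEBPB, NFKB1 and E2F1 were named after their values were seen. Positions are those of the array files (hg19). The fit was tested on simulated data. A further gene list and 1 gene of another list are not reported here.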

Additional observations from a re-analysis of the deposited data

Results flagged for a closer look

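At 7 member probes the differences of BT474-Var1 and BT474-Var4 cells from Control had opposite signs and the difference between the populations itself passed the limma test. How many of all tested probes show this pattern was not counted, so the 7 are not read as a trait of the family. The log2 difference, BT474-Var4 minus BT474-Var1, was -1.68 for BAX at 10 spots, -0.33 for the beta probe of BAX, 0.50 for BCL2L1, 0.53 for the bright BCL2A1 probe, 0.40 for the alpha probe of BCL2, -0.39 for the middle BCL2L11 probe and 0.36 for BIK. Opposite signs did not hold for the alpha probe of BCL2 after quantile normalization, where the BT474-Var1 difference was 0.02 in place of -0.06, or for the beta probe of BAX without BT474-Var1 array B, where it was -0.0078 in place of 0.08. Both populations were compared with the same Control arrays, and at none of the 7 did both differences from Control pass the threshold. Column of the slide and plasmid backbone also separate the populations and cannot be told apart from the variants.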

How the results depend on the processing

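No member probe changed the sign of a called difference under any of the 16 alternatives run. The number of member probes called in BT474-Var1 against Control cells, 9, was 2 without a filter on dim probes and 3 to 8 when 1 array was left out. In BT474-Var4 against Control cells, 3 became 7 with normexp background correction, 6 with a trended and robust prior, 5 among probes well above background on all 6 arrays, 0 without a filter, 1 under the methods' analysis of variance, 1 with only both groups compared and 1 with the replicate letter as a replicate block, and 0 to 1 without 1 array. Between the populations, 12 became 3 without a filter and 8 to 10 without 1 array. At 2-fold, the 2 calls in BT474-Var1 cells became 1 with normexp, without a filter or under the analysis of variance and 1 to 2 without 1 array, and the 1 call between the populations became 2 after quantile normalization and 1 to 2 without 1 array. The calls lost after quantile normalization were BCL2L1 and BIK in BT474-Var1 cells and the beta probe of BAX between the populations. In the unadjusted analysis of variance 9, 6 and 12 member probes had a p under 0.05, and 6, 1 and 10 after Benjamini-Hochberg adjustment.

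Over all probes, the 10959, 7709 and 13117 calls of the 3 comparisons became 2672, 722 and 5112 without a filter, 4172 to 9409, 1501 to 5487 and 8086 to 10693 without 1 array, and 8754, 4907 and 11150 with the replicate block. The 1256, 1010 and 2187 calls at 2-fold became 170, 152 and 363 with normexp and 672, 570 and 1212 among probes well above background on all arrays, and the 1010 became 494 without a filter, 632 under the analysis of variance and 652 to 954 without 1 array. Of the 12 counts of list genes, 11 moved by over 1.5 times without a filter, 3 to 6 without 1 array and at most 3 under any other setting. The genes named from the lists with a 2-fold call were put through the same settings after their values were seen, and the other list genes named were not. The deviations of A from B correlated between groups at -0.02 to 0.05, and the replicate block kept 8, 1 and 11 member calls. Whether the letters A and B pair the samples is not stated, and these correlations cannot settle it. The tested probes were held fixed when an array was left out, and a group left with 1 array was assumed to vary like the others. Dim probes, such as the coding probe of BCL2A1, give no level here.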
